A study of Mus musculus with 8 samples.

Results

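The 10 genes described here form the core machinery that fuses and divides mitochondria, namely *Opa1*, *Oma1*, *Mfn1*, *Mfn2*, *Dnm1l*, *Mff*, *Fis1*, *Mief1*, *Mief2* and *Gdap1*. They were taken by name from the 50599 gene records of each library, and each symbol matched 1 protein-coding record. RNA was sequenced from whole hearts of 12-week-old male C57BL/6N mice, with 4 libraries from control mice (*Lrpprc* loxP/loxP, called wildtype) and 4 from heart and skeletal muscle-specific knockout mice (*Lrpprc* loxP/loxP, Cre+). Both groups carried the loxP alleles and only the knockout carried Cre, so an effect of Cre itself and loss of *Lrpprc* cannot be told apart in this design. The line that drives Cre was not given in the sources used here.

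Mitochondria form a network that is reshaped by large GTPases. MFN1 and MFN2 join outer membranes and OPA1 joins inner membranes, while DRP1, the product of *Dnm1l*, is recruited by MFF, FIS1 and the adaptors encoded by *Mief1* and *Mief2* to constrict and divide the organelle. OMA1, a protease of the inner membrane that responds to stress, and YME1L1 cut OPA1 into its short forms, and in the adult heart, where mitochondria are packed between myofibrils, the balance of these activities is known to influence cristae structure and survival of the muscle cells.

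LRPPRC is an RNA-binding protein that stabilises mitochondrial mRNAs. The targeted *Lrpprc* transcript was at 3665 ± 216 normalised counts in wildtype and 577 ± 48.6 in knockout hearts (SD, n = 4), and every knockout library lay below every wildtype library (log2 fold change -2.67). The libraries held between 35218541 and 47743376 expected counts. Mitochondrial rRNA took 44.01% to 46.86% of these in wildtype and 65.63% to 67.84% in knockout libraries. The cardiomyocyte markers were abundant in all libraries, but 6 of 7 were lower in the knockout and none higher, with a summed level of 991816 to 1105172 normalised counts in wildtype against 464014 to 608553 in knockout hearts. Of the macrophage markers, 5 of 6 were higher (sums of 2656 to 3460.2 against 3054 to 7139), and of the cardiac fibroblast markers 3 of 7 (12923 to 13499.8 against 15568 to 34771). Smooth muscle and pericyte markers were lower for 2 of 5. Of all records tested, 18.2% were higher and 15.5% lower. The atrial marker *Myl7* was at 3287 to 4555 in wildtype and 70.13 to 639.1 in knockout hearts. *Sln* was at 791.8 to 1142 and 46.08 to 181.5, and *Myl4* at 3729.5 to 4917 and 463.3 to 3415. *Nppa* was higher (12339 to 12871 against 34335 to 48629), and *Bmp10* overlapped between groups. In RNA from whole tissue, fewer cells of a type and less RNA per cell cannot be told apart, and the part of these marker changes in the results for fusion and fission genes was not tested.

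Knockout replicate 3 stood apart from the other knockout hearts. It was the highest of the 4 knockout libraries for 8 of the 9 fusion and fission genes with more than a few counts, compared with 48.3% of the 6738 records that averaged at least 300 normalised counts. It was also the lowest of the knockout hearts for 5 of 7 cardiac fibroblast, 5 of 6 macrophage, 5 of 5 endothelial, 3 of 5 smooth muscle and pericyte and 4 of 5 atrial markers, and the highest for 5 of 5 erythroid markers (summed level of 53861 normalised counts, against 15231 to 45829). Its cardiomyocyte sum of 599395 lay within the 464014 to 608553 of the other knockout hearts. Results are therefore given with and without this library where it matters, and its part in them beyond those values was not tested.

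The question asked of these genes was whether loss of LRPPRC from the heart changed the abundance of their transcripts. *Opa1* and *Oma1*, the inner membrane fusion GTPase and the protease that cleaves it, were lower in the knockout, and none of the 10 genes was higher. Counts were compared with DESeq2 and p-values were adjusted over all 19959 records tested with the Benjamini-Hochberg procedure, with a threshold of 0.05. At this threshold 15.5% of all records were lower, 18.2% higher and 33.7% changed in either direction. Of the fusion and fission genes 2 of 10 were lower and 0 higher. Among records with at least 300 normalised counts on average, a level that 9 of the 10 genes reached, 51.9% changed and 22.2% were lower. edgeR also gave 2 lower and 0 higher, and no gene was higher at an unadjusted p under 0.05. The median log2 fold change was -0.12 over the 10 genes and 0.005 over the 19959 records tested.

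*Oma1* (ENSMUSG00000035069.3, chr4:103313812-103371868, plus strand, GRCm38) had the largest fold change of the 9 genes with more than a few counts. Its normalised counts were 465.5, 426.1, 444.5 and 436.6 in the wildtype and 379.7, 252.0, 194.3 and 283.4 in the knockout libraries. The groups did not overlap, as was true of 33.0% of all records, and the knockout libraries were spread widely with replicate 3 the lowest. The mean fell by 37.4%, from 443.2 ± 16.7 to 277.4 ± 77.6 (SD, n = 4; log2 fold change -0.68 ± 0.19 SE, DESeq2 adjusted p = 0.002). This call remained when any 1 of the 8 libraries was left out, with fold changes from -0.86 to -0.54 on the log2 scale.

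*Opa1* (ENSMUSG00000038084.16, chr16:29579334-29654884, plus strand, GRCm38) was read at 4003, 4042, 4133 and 4249 normalised counts in wildtype hearts. In the knockout hearts it was at 3544, 2832, 3809 and 3208. All 4 knockout libraries were below all 4 wildtype libraries, a pattern shared with 16.4% of records. The mean fell by 18.5%, from 4107 ± 109 to 3348 ± 423 (SD, n = 4; log2 fold change -0.29 ± 0.11 SE, DESeq2 adjusted p = 0.0237). The call was close to the threshold. It was lost when wildtype replicate 1, 2, 3 or 4 or knockout replicate 2 or 4 was left out, with adjusted p between 0.0552 and 0.0919, and it held in the other 2 of the 8 fits, at adjusted p = 0.000619 without knockout replicate 3.

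**Figure D1:**
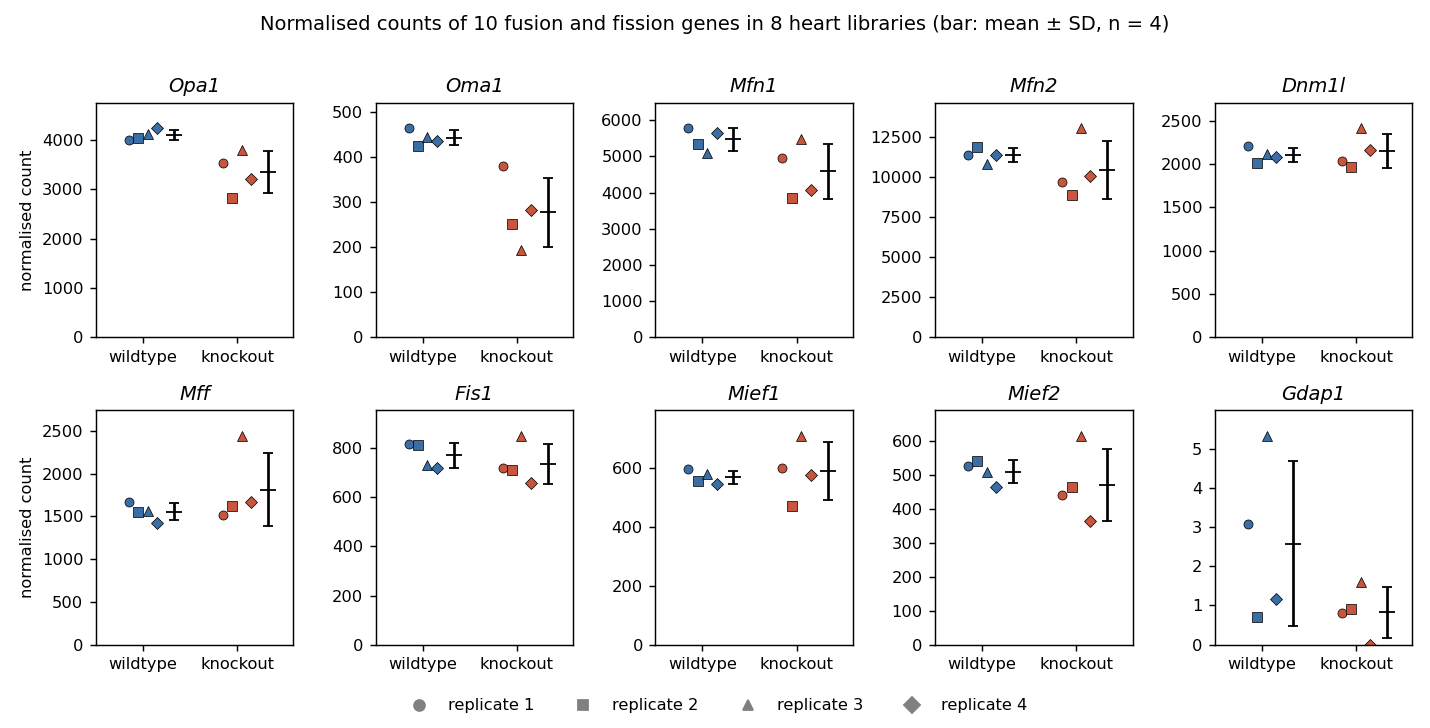
Normalised counts (y axis, linear, from 0, a separate scale for each gene) of the 10 fusion and fission genes in the 4 wildtype (blue) and 4 knockout (red) heart libraries. Points are libraries with a symbol for each replicate number, and bars give the mean ± SD (n = 4). The groups are separate for *Opa1* and *Oma1*, and the triangle of knockout replicate 3 is the highest red point for 8 of the 9 genes with more than a few counts.

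The promoter windows of the fusion and fission genes were searched for motifs that were chosen with the expression results known. RefSeq promoter records (250 bases before to 50 after the start of each gene, GRCm38.p6) were found for 9 of the 10 genes, *Gdap1* being the one with no entry. The binding sequence of NRF1, a transcription factor known for its targets among nuclear genes for mitochondrial proteins, was searched on both strands with 1 base left free. It was found in the windows of *Opa1* and *Oma1* only, that is 2 of 9, and in 5.19% of the 27025 genes in the table. The stretches that hold it are shown because *Opa1* and *Oma1* are the genes that were lower in the knockout, and capitals mark the match:
Opa1: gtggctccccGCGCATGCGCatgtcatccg
Oma1: ggaaaggtgtGCGCCTGCGCggagccggct

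The *Opa1* stretch is at chr16:29579265-29579294 (plus strand), upstream of the annotated gene, with the match starting at position -59 from the RefSeq start. The *Oma1* stretch is at chr4:103313813-103313842 (plus strand), with the match starting at -23 from the RefSeq start, and it falls within the untranslated first exon of an *Oma1* transcript in GENCODE M21. A match describes the letters and not binding, and a part of the NRF1 site in the lower levels was not tested. The GC box GGGCGG was present in 9 of 9 windows (38.2% of all genes) and the ETS core CCGGAAG in those of *Mfn1*, *Dnm1l*, *Fis1* and *Mief1* (4 of 9, against 9.93%). The C/EBP-ATF element core TGATGNAA (4.51% of all genes), the cAMP response element TGACGTCA (2.03%) and the oestrogen-related receptor half-site AAGGTCA (5.38%) were found in 0 of 9.

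The outer membrane fusion GTPases differed from wildtype by less than the test could resolve with all 8 libraries. *Mfn1* was read at 5789, 5357, 5089 and 5654 normalised counts in the wildtype and 4946, 3859, 5486 and 4065 in the knockout libraries. *Mfn2*, which also tethers mitochondria to the endoplasmic reticulum, was at 11348, 11878, 10785 and 11362 in the wildtype and 9653, 8874, 13041 and 10071 in the knockout libraries. For both genes 3 of 4 knockout libraries lay below all wildtype libraries, and replicate 3 did not. The log2 fold change was -0.25 for *Mfn1* (95% interval -0.51 to 0.0, DESeq2 adjusted p = 0.125) and -0.12 for *Mfn2* (-0.38 to 0.13, adjusted p = 0.504).

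Knockout replicate 3 was singled out in part for being the highest in most of these genes. It was so for both mitofusins, and leaving it out had to lower their knockout means. Leaving it out also brought both past the threshold. None of the other 7 leave-one-out fits did so, and without knockout replicate 2 the fold changes were -0.18 for *Mfn1* (adjusted p = 0.325) and -0.05 for *Mfn2* (adjusted p = 0.817). Without replicate 3 *Mfn1* was at -0.35 (DESeq2 adjusted p = 0.00371) and *Mfn2* at -0.25 (adjusted p = 0.00439) on the log2 scale. In that fit of 7 libraries 4 of the 9 genes with an adjusted p were lower and 0 higher, with 17.2% of 19200 tested records lower and 36.6% changed in either direction. The 4 genes were those of the fusion GTPases and *Oma1*. Without this library the 3 knockout values lay below all wildtype values for each of these 4 genes, as they did for 21.1% of the records tested.

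The fission GTPase *Dnm1l* had nearly equal levels in the groups. Its normalised counts were 2211, 2007, 2111 and 2083 in the wildtype and 2040.1, 1970.1, 2418 and 2161 in the knockout libraries. The log2 fold change was 0.03, with a 95% interval of -0.16 to 0.22 (DESeq2 adjusted p = 0.849). The fit of 7 libraries with knockout replicate 3 removed gave -0.03.

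Of the DRP1 receptors, *Mff* was read at 1674, 1556, 1569 and 1426 normalised counts in the wildtype and 1519.7, 1626, 2448 and 1666 in the knockout libraries. Only knockout replicate 3 exceeded every wildtype library, and the log2 fold change went from 0.22 (95% interval -0.09 to 0.54, DESeq2 adjusted p = 0.304) to 0.04 when it was left out. A sense intronic RNA, Gm28941, overlaps *Mff* on the same strand and averaged 34.72 normalised counts. *Fis1* ranged from 719.3 to 816.7 in wildtype and from 659.9 to 852.8 in knockout hearts. Its groups overlapped, with a log2 fold change of -0.07 (-0.29 to 0.16, adjusted p = 0.714).

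The adaptors that recruit DRP1 independently of MFF overlapped between groups as well. *Mief1* lay between 546.7 and 595.5 normalised counts in wildtype and between 470.9 and 710.4 in knockout hearts, with a log2 fold change of 0.05 (95% interval -0.22 to 0.32, DESeq2 adjusted p = 0.818). *Mief2* lay between 462.3 and 540.8 in wildtype and between 363.2 and 615.0 in knockout hearts, with a log2 fold change of -0.12 (-0.44 to 0.21, adjusted p = 0.635) that became -0.28 without knockout replicate 3 (adjusted p = 0.0754). *Gdap1*, an outer membrane protein best known from peripheral nerve, had at most 4 expected counts in a wildtype library and at most 1 in a knockout library. No fold change is given for it, since a difference was not detectable at this depth.

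**Figure D2:**
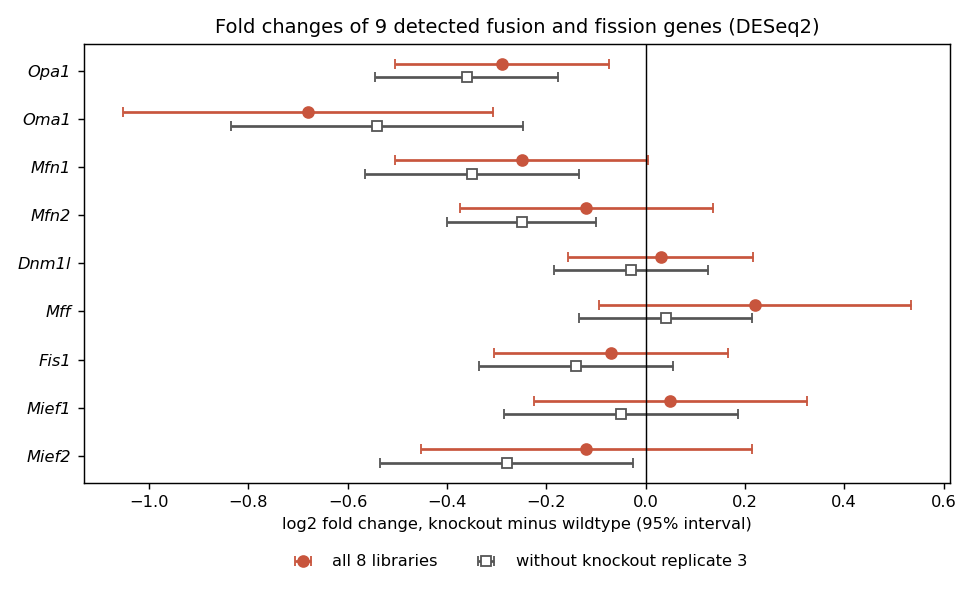
Log2 fold changes (x axis, knockout minus wildtype, with 95% intervals from DESeq2) of the 9 fusion and fission genes with more than a few counts. Red circles use all 8 libraries and open squares leave out knockout replicate 3, and with all libraries the intervals of *Opa1* and *Oma1* lie below 0, while without replicate 3 those of *Mfn1*, *Mfn2* and *Mief2* also do, that of *Mief2* not passing after adjustment.

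The knockout hearts varied more among themselves than the wildtype hearts did. The coefficient of variation was larger in the knockout for 9 of 9 genes, as it was for 81.2% of records with at least 300 normalised counts on average. Its median over these genes was 4.01% in wildtype and 16.7% in knockout hearts. The widest was that of *Oma1*, at 3.77% in wildtype and 28.0% in knockout hearts, and the narrowest in the knockout that of *Dnm1l*, at 9.17%. Over the well-expressed records the medians were 7.09% and 13.6%. Without knockout replicate 3 the spread was larger in the knockout for 7 of 9 genes (65.2% of records), with a median of 11.2% (9.65% over records), and that of *Mff* dropped from 23.5% to 4.7%, below its 6.55% in wildtype.

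Since these fold changes rest on how libraries are scaled, the counts were also scaled by their totals. With all counts in the total, 7 of the 10 genes were lower and 0 higher, while of all records tested 29.6% were lower, 9.64% higher and 39.3% changed in either direction. With mitochondrial rRNA left out of the total, 5 genes were higher (*Mfn2*, *Dnm1l*, *Mff*, *Fis1* and *Mief1*) and 0 lower, while of all records 38.9% were higher, 5.43% lower and 44.3% changed in either direction. A change of scaling shifts the fold changes of all records by nearly the same amount, so the genes moved with the bulk of the records. The median log2 fold change of records averaging at least 10 normalised counts was 0.0186 in the first fit, -0.277 with all counts in the total and 0.444 without mitochondrial rRNA. *Opa1* was then at 0.12 and *Oma1* at -0.24, neither past the threshold (DESeq2 adjusted p = 0.262 and 0.358). Relative to this median, *Oma1* was at -0.69 under each of the 3 scalings, and *Opa1* was at -0.31 in the first fit and at -0.32 under both total scalings. This agreement follows from the common shift and is no test of the changes.

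Ratios between the genes within a library do not depend on this scaling, and 6 were compared on normalised counts per kilobase of effective length. *Oma1* against *Yme1l1*, the constitutive OPA1 protease, had log2 ratios of -0.79, -0.76, -0.7 and -0.72 in the wildtype and -0.98, -1.6, -2.05 and -1.5 in the knockout libraries. The groups did not overlap, and the difference was -0.79 on the log2 scale (exact two-sided permutation test, p = 0.0286, the smallest that 4 against 4 can give, and 0.0857 after adjustment over the 6 ratios). *Yme1l1* itself was at 1604 ± 90.1 and 1691 ± 66.0 normalised counts (log2 fold change 0.08, DESeq2 adjusted p = 0.516), and with mitochondrial rRNA left out of the totals it was higher (0.5, adjusted p = 9.07e-09).

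*Dnm1l* against *Opa1*, the division GTPase against the inner membrane fusion GTPase, had log2 ratios of -0.81, -0.96, -0.92 and -0.98 in the wildtype and -0.75, -0.47, -0.61 and -0.52 in the knockout libraries. All 4 knockout ratios were above all 4 wildtype ratios, by 0.33 on average (exact permutation p = 0.0286, adjusted 0.0857). *Mff* against *Fis1* differed by 0.27 (exact permutation p = 0.0571, adjusted 0.114) and *Opa1* against *Oma1* by 0.41 (0.0857, adjusted 0.129), with overlapping groups. The paralog pairs were closer, at -0.13 for *Mfn1* against *Mfn2* (exact permutation p = 0.2, adjusted 0.24) and 0.18 for *Mief1* against *Mief2* (0.286, adjusted 0.286). Thus 0 of 6 ratios passed after adjustment and 2 did before it. Since the smallest possible p was 0.0286, none could pass unless at least 4 of the 6 reached it. The 0 therefore does not show that the ratios were unchanged. With knockout replicate 1 left out, 4 ratios passed, each at an exact permutation p of 0.0429 after adjustment, and in the other 7 leave-one-out tests 0 passed. With knockout replicate 3 left out, *Opa1* against *Oma1* and *Mff* against *Fis1* each differed by only 0.19.

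**Figure D3:**
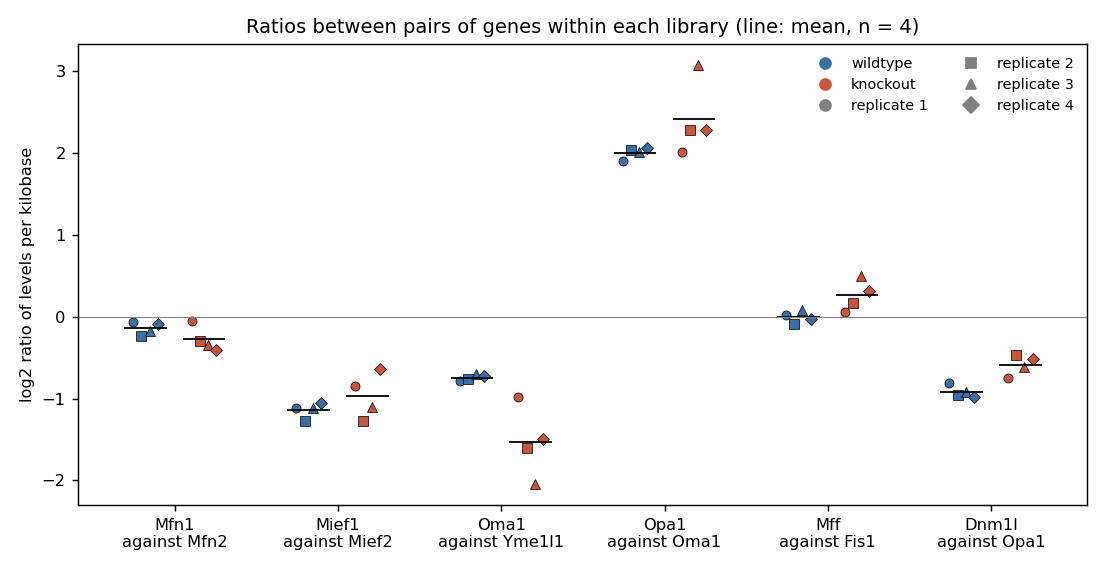
Log2 ratio of levels per kilobase of effective length (y axis) for 6 pairs of genes in the 4 wildtype (blue) and 4 knockout (red) libraries, with symbols for the replicate numbers and lines at the group means. The groups are separate for *Oma1* against *Yme1l1* and for *Dnm1l* against *Opa1*.

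On the same scale, counts per kilobase, the mitofusins were the most abundant of the 10 transcripts. In wildtype hearts *Mfn2* was at 2813 ± 111 and *Mfn1* at 2556 ± 146 (SD, n = 4), and their ranges overlapped. *Fis1* (1236 ± 83.7) and *Mff* (1231 ± 80.6) came next and overlapped with each other, followed by *Opa1* (1028 ± 27.4) and *Dnm1l* (544.6 ± 21.8). *Mief2* (278.2 ± 18.5) and *Oma1* (255.5 ± 9.63) overlapped, and *Mief1* (125.2 ± 4.92) and *Gdap1* (0.936 ± 0.768) were lowest. The order in knockout hearts was the same except that *Mff* (1435 ± 337) had a higher mean than *Fis1* (1181 ± 131), with overlapping ranges.

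Transcript usage was followed through the abundance-weighted transcript length that RSEM gives for each gene. In limma 0 of the 9 genes tested changed in length, against 1.15% of 8345 records, and 0 had an unadjusted p under 0.05. *Mff*, the gene with the most annotated isoforms here (16), had a mean length of 1475 ± 44.3 bases in wildtype and 1389 ± 73.7 in knockout hearts (limma adjusted p = 0.4). *Dnm1l* lengths did not overlap, at 4022.95 to 4025.47 bases in wildtype and 4028.26 to 4034.97 in knockout hearts, but the difference of 6.58 bases was small (limma adjusted p = 0.962). Lengths did not overlap for 10.2% of records.

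The genes whose levels most resembled those of *Oma1* over the 8 libraries were *Slc28a2*, a nucleoside transporter (Pearson r = 0.993), *Tmem25* (0.991) and the predicted gene *Gm36827* (0.99), among 10446 records with at least 100 normalised counts on average. *Slc28a2* went from 825.7, 798.2, 758.9 and 795.5 normalised counts in the wildtype to 675.6, 372.5, 256.1 and 387.5 in the knockout libraries. As for *Oma1*, replicate 1 was the highest and replicate 3 the lowest of the knockout hearts. These correlations describe libraries that share their genotype contrast and carry no test.

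Genes that act around fusion and fission were compared in the same fit. Of 57 genes in 6 lists, 56 were tested, of which 15 were higher and 13 lower. The share of 50.0% changed compares with 33.7% of all records and with 51.9% of those with at least 300 normalised counts on average. This share was near that of the well-expressed records. Under total-count scaling 8 of these genes were higher and 25 lower, and with mitochondrial rRNA left out of the total 35 were higher and 5 lower, so the directions below hold for the DESeq2 size factors. Each list held genes that moved in both directions.

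Among 10 genes of OPA1 processing and inner membrane scaffolds, 3 were higher and 2 lower. *Afg3l2*, a subunit of the matrix-facing AAA protease, was at 1694, 1728, 1893 and 1788 normalised counts in the wildtype and 3262, 3205, 3969 and 3658 in the knockout libraries. This was a 1.98-fold rise with no overlap (log2 fold change 0.99, DESeq2 adjusted p = 1.51e-20). *Dele1*, which is cleaved by OMA1 when mitochondria are stressed and relays that stress to the cytosol, fell from 2165 ± 42.9 to 1186 ± 159 (-0.87, adjusted p = 1.32e-13). *Parl*, the rhomboid protease of the inner membrane, rose from 426.6 ± 34.0 to 657.2 ± 136 (0.62, adjusted p = 0.000492), and *Atad3a*, an inner membrane AAA protein, rose by 0.62 as well (adjusted p = 0.00104). *Atad3a* was also the 1 gene of 45 in the lists whose mean transcript length changed, from 1749 ± 90.6 to 2097 ± 58.6 bases (limma adjusted p = 0.038), beside 1.15% of all records. That call was lost without wildtype replicate 2, 3 or 4 or any 1 of the knockout replicates (limma adjusted p of 0.0702 to 0.0974), and it held without wildtype replicate 1 (0.0482).

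The prohibitins, ring scaffolds that hold OPA1-processing proteases, did not pass the test. *Phb* was at 3361 ± 139 and 3758 ± 591 normalised counts and *Phb2* at 1867 ± 33.4 and 2197 ± 487 in wildtype and knockout hearts (DESeq2 adjusted p = 0.351 and 0.24). With mitochondrial rRNA left out of the totals both passed it, at 0.58 and 0.65 on the log2 scale. Total-count scaling ended the calls of *Parl* (0.32, adjusted p = 0.0621) and *Atad3a* (0.31, adjusted p = 0.0544).

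Of 11 genes of the MICOS complex, which shapes cristae junctions, and its bridge to the outer membrane, 3 were higher and 2 lower. The MICOS subunit *Chchd6* rose from 66.8 ± 8.34 to 193.6 ± 32.6 normalised counts (log2 fold change 1.53, DESeq2 adjusted p = 1.22e-13), and *Dnajc11*, which associates with the bridging complex, rose from 1057 ± 133 to 1463 ± 260 (0.47, adjusted p = 0.0104). *Apool* fell from 537.7 ± 27.3 to 409.3 ± 75.1 (-0.39, adjusted p = 0.0233). The *Dnajc11* call was lost without wildtype replicate 1 (adjusted p = 0.0598), and that of *Apool* without wildtype replicate 1, 3 or 4 or knockout replicate 2 or 4 (adjusted p of 0.0702 to 0.0983). *Immt*, the core MICOS subunit, was at 8794 ± 157 and 7979.6 ± 779 (adjusted p = 0.248). It was lower without knockout replicate 3 (-0.21, adjusted p = 0.00878) and under total-count scaling (-0.44, DESeq2 adjusted p = 6.46e-10). With mitochondrial rRNA left out of the totals it was higher (0.28, adjusted p = 7.17e-05). Total-count scaling also ended the call of *Dnajc11* (0.16, adjusted p = 0.372).

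Outer membrane fusion modulators were split, with 2 of 8 higher and 2 lower. *Miga2*, a mitoguardin that promotes fusion, fell from 1701 ± 74.4 to 923.7 ± 89.5 normalised counts (log2 fold change -0.88, DESeq2 adjusted p = 7.86e-17). *Marchf5*, a ubiquitin ligase of the outer membrane, rose from 777.7 ± 50.0 to 1120 ± 221 (0.53, adjusted p = 0.00221), a call lost under total-count scaling (0.22, adjusted p = 0.148). *Pld6*, a phospholipase of the outer membrane, was near the detection limit, at 6.979, 8.383, 7.027 and 11.47 in the wildtype and 0.8794, 3.696, 0.0 and 0.0 in the knockout libraries. The groups were separate (adjusted p = 0.00954), though the call was lost without wildtype replicate 4 (adjusted p = 0.0518).

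Of 13 fission modulators and other dynamins tested, 3 were higher and 3 lower. *Spire1*, an actin nucleator with a mitochondrial isoform, was at 123.5, 121.3, 169.9 and 145.8 normalised counts in the wildtype and 382.2, 416.4, 712.9 and 515.0 in the knockout libraries. It rose 3.61-fold (log2 fold change 1.85, DESeq2 adjusted p = 1.3e-15), and no other gene of the 6 lists rose by more. *Mtfp1*, an inner membrane protein that promotes division, was at 1398, 1505, 1488 and 1387 in the wildtype and 975.0, 549.1, 333.8 and 471.8 in the knockout libraries (-1.31, adjusted p = 5.93e-06). As with *Oma1*, knockout replicate 1 was the closest to wildtype and replicate 3 the farthest. *Dnm2*, the dynamin of vesicle scission, rose from 1193 ± 36.3 to 2070.3 ± 244 (0.8, adjusted p = 2.77e-12).

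Cardiolipin, the inner membrane lipid that OPA1 binds, is made and remodelled by the products of a further 9 genes, of which 2 were higher and 2 lower. *Prelid1*, which carries its precursor phosphatidic acid between the membranes, rose from 304.5 ± 30.5 to 724.1 ± 119 normalised counts (log2 fold change 1.25, DESeq2 adjusted p = 1.34e-14), and *Crls1*, the cardiolipin synthase, from 237.4 ± 11.1 to 362.1 ± 74.9 (0.61, adjusted p = 0.00106). *Lclat1*, an acyltransferase that remodels it, fell from 1904 ± 321 to 1207 ± 212 (-0.66, adjusted p = 0.000505). The call of *Crls1* was lost under total-count scaling (0.3, adjusted p = 0.0859) and that of *Lclat1* with mitochondrial rRNA left out of the totals (-0.24, adjusted p = 0.227).

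Of 5 genes for movement of mitochondria along microtubules, 2 were higher and 2 lower. *Kif5b*, the kinesin heavy chain, rose from 4075 ± 421 to 6777 ± 291 normalised counts (log2 fold change 0.73, DESeq2 adjusted p = 3.97e-12), and its adaptor *Trak2* from 5720.2 ± 491 to 8906 ± 258 (0.64, adjusted p = 8.02e-12). *Rhot2*, the outer membrane GTPase to which such adaptors bind, fell from 1991 ± 131 to 1206 ± 170 (-0.72, adjusted p = 6.04e-08). Its paralog *Rhot1* was at 1396 ± 56.8 and 1275 ± 202 (-0.13, adjusted p = 0.462). *Rhot1* was lower without knockout replicate 3 (-0.25, adjusted p = 0.014) and under total-count scaling (-0.43, DESeq2 adjusted p = 0.000947). With mitochondrial rRNA left out of the totals it was higher (0.29, adjusted p = 0.0159).

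**Figure D4:**
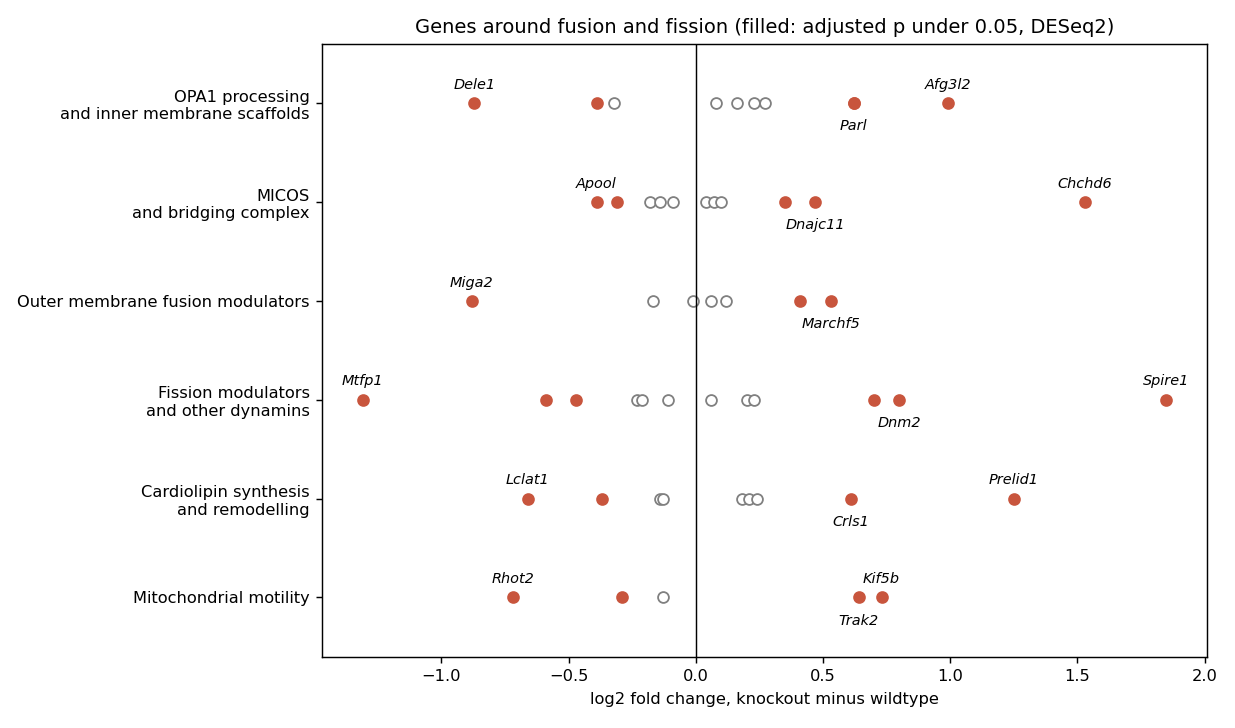
Log2 fold changes (x axis, knockout minus wildtype, n = 4 libraries a group) of genes in 6 lists around fusion and fission (y axis), each point a gene and filled points those past the DESeq2 adjusted p threshold of 0.05. Each list has filled points on both sides of 0; *Pld6* and other genes that averaged fewer than 10 wildtype counts are left out of the plot.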

How the data were processed

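Total RNA of 8 whole hearts, 4 wildtype and 4 *Lrpprc* knockout, was depleted of cytoplasmic rRNA and sequenced as reverse-stranded read pairs. The authors aligned reads with Bowtie2 and quantified them with RSEM 1.2.31 (mm10; GENCODE M13 transcripts plus mitochondrial records extended by 50 adenines), which gave the deposited expected counts, TPM values and transcript lengths in bases per gene. Multi-mapped reads are shared by RSEM in proportion, so overlapping genes and close copies are less certain. Of the deposited tables of the whole series, one held 8 columns of normalised counts whose names match no label and the other held the fold changes and p-values of the authors' own comparison, and neither was used.

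Here the expected counts were rounded and compared with DESeq2 1.42.0 in R 4.3.3, with genotype as the term, median-of-ratios size factors and an offset for effective length. The tests of edgeR 4.0.16 and limma 3.58.1 (log2 transcript length, records averaging at least 100 normalised counts) and exact two-sided permutation tests of log2(value + 1.0) ratios were also used, the last counting assignments whose absolute difference was at least that observed. Fits were tested on simulated data. Symbols came from GENCODE M21, for 50339 of 50563 Ensembl records. Intervals cover the spread between these libraries. No replicate pair agreed within sampling noise, and the methods of the study give 4 mouse hearts a group. Genes named are *Lrpprc*, all 10 fusion and fission genes, the up to 3 largest changes of each list past the threshold, and the 3 genes most like *Oma1*. *Atad3a*, *Yme1l1*, *Phb*, *Phb2*, *Immt* and *Rhot1* and the atrial markers were added after their values were seen. The members, lists and motifs were chosen with earlier results of these data known. Alternatives were edgeR, no length offset, a filter of 10 counts in 4 libraries, nuclear or total-count scaling, a replicate block and leaving out each library. The markers of endothelial cells gave 0 higher and 0 lower of 5, those of erythroid cells 0 and 0 of 5, adipose 0 and 0 of 4, smooth muscle and pericytes 0 and 2 of 5, atrial cells 1 and 2 of 5, and Schwann cells and neurons 1 and 1 of 8.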

Additional observations from a re-analysis of the deposited data

Results flagged for a closer look

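Among 100 groups of 4 libraries examined for the named genes, 7 held a library far from the other 3, while chance flags about 1 in 20 groups, or 5 here. *Mff* was at 2448 normalised counts in knockout replicate 3, against 1519.7 to 1666 in the other knockout hearts. *Parl* was likewise highest in that library, at 858.5 against 566 to 615.0, and in the wildtype it was highest in replicate 3, at 477.3 against 404.5 to 413. *Dele1* was highest in knockout replicate 1, at 1424 against 1103 to 1111. *Lrpprc* was lowest in knockout replicate 2, at 504.3 against 597.4 to 605.4. *Yme1l1* was highest in wildtype replicate 1, at 1739 against 1555 to 1564, and *Immt* in wildtype replicate 4, at 9029.8 against 8713 to 8718.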

How the results depend on the processing

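The count of fusion and fission genes past the threshold was 2 and went to 7 under total-count scaling (7 lower) and to 5 when mitochondrial rRNA was left out of the totals (5 higher). Counts over all genes moved the same way, to 5912 lower and 1924 higher and to 1111 lower and 7950 higher. The count of fusion and fission genes ranged from 1 to 4 when each library was left out in turn. Total-count scaling reversed *Dnm1l* (-0.27), *Mff* (-0.09), *Mief1* (-0.25), *Yme1l1* (-0.22), *Phb* (-0.15) and *Phb2* (-0.08), and ended the calls of *Parl*, *Atad3a*, *Dnajc11*, *Marchf5* and *Crls1*. Leaving mitochondrial rRNA out of the totals reversed *Opa1* (0.12), *Mfn1* (0.16), *Mfn2* (0.29), *Fis1* (0.35), *Mief2* (0.3), *Apool* (0.02), *Immt* (0.28) and *Rhot1* (0.29), and ended the calls of *Oma1* and *Lclat1*. The cause was not tested beyond the shift of the median of records. Without knockout replicate 3, *Dnm1l* (-0.03) and *Mief1* (-0.05) also changed sign, from values near 0, and over the leave-one-out fits they ranged from -0.03 to 0.07 and from -0.05 to 0.15. The ratios past the threshold ranged from 0 to 4 over the leave-one-out tests, and the records changed in transcript length, 96 of 8345, ranged from 17 to 58. The labels do not say whether the replicate numbers pair the samples. Same-numbered libraries had correlations of -0.029, -0.052, -0.009 and 0.086. Differently numbered libraries reached 0.111, so these values cannot decide it. Under a replicate block 1 record changed in transcript length in place of 96, with *Atad3a* losing its length call (limma adjusted p = 0.167). The counts of fusion and fission genes, of list genes and of all genes past the threshold stayed within 1.5 times. The length call of *Atad3a* was also lost with a minimum of 20 normalised counts (adjusted p = 0.0523). With edgeR, without the length offset, with the low-count filter and with nuclear size factors no fold change given here changed its call, except that *Pld6* and *Gdap1* were not in the edgeR and filtered fits. Of 600 tested values under an alternative, 535 kept direction and call, 29 kept direction and lost the call, 20 kept direction and gained it, and 16 reversed, of which 2 lost a call (*Opa1* and *Apool*) and 5 gained one (*Dnm1l*, *Mfn2*, *Fis1*, *Immt* and *Rhot1*). Of 169 counts, 132 stayed within 1.5 times and 37 moved. The depth left *Gdap1* undetermined. The spread and the separation of groups without knockout replicate 3 were added after seeing the data.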
